A study of Mus musculus with 12 samples.

Results

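The 8 genes described here encode binding proteins and receptors of the insulin-like growth factors (IGFs): Igfbp2, Igfbp3, Igfbp4, Igfbp5, Igfbp6, Igfbp7, Igf1r and Igf2r. They were chosen by gene symbol, 8 of the 55421 Ensembl genes in the deposited count table, and all 8 were found once. Of these, 6 passed the low-count filter and were tested, and Igfbp2 and Igfbp6, whose counts did not exceed 15 in any library, are given by their counts.

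IGF1 and IGF2 signal through the tyrosine kinase receptor encoded by Igf1r, which relays to the insulin receptor substrates and on to PI3K and AKT. Secreted IGF-binding proteins hold the ligands with high affinity, carry them, and limit or prolong their access to the receptor, and proteases release the ligand by cutting the binding protein. Igf2r encodes the cation-independent mannose-6-phosphate receptor, which takes up IGF2 for degradation and sorts lysosomal enzymes. Several binding proteins, Igfbp3, Igfbp4, Igfbp5 and Igfbp7 among them, are known components of the secretome of senescent cells.

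The cells were MOC2, a mouse oral squamous cell carcinoma line, grown in vitro, and the study addressed the part that extracellular vesicles (EVs) of senescent cells play in their signalling to the surroundings. Polyadenylated RNA was sequenced from 12 libraries in 4 groups of 3. The line MOC2-25 is labelled EV-Proficient and the line MOC2-27 EV-Deficient, the latter with vesicle release blocked genetically in a gene that the labels do not name. Each line was sampled as a control, with DMSO as its treatment label, and after 600 nM paclitaxel, a microtubule-stabilising drug, for 48 h to induce senescence. Each EV label is thus carried by 1 line, so the EV label and the line cannot be told apart. All groups shared a serum-containing medium supplemented with insulin, EGF, hydrocortisone, transferrin, cholera toxin and tri-iodo-thyronine, so a ligand of the insulin receptor was present throughout. The labels do not say whether the libraries of a group came from separate cultures, and the p-values then measure only the spread between these samples.

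Library totals ran from 23263472 to 62955757 counts. The second principal component of log2 expression, holding 16.4% of the variance, did not follow the EV label: it put EV-proficient DMSO (27.2 to 36.5) beside EV-deficient paclitaxel (34.2 to 43.5), and EV-deficient DMSO (-24.7 to -20.5) on the side of EV-proficient paclitaxel (-64.6 to -37.9). An added row for a dngfr sequence was ordered the same way, at 5.73 to 12.2 and 9.63 to 12.4 CPM (counts scaled to a common library size) in the first pair of groups and 1.89 to 2.54 and 2.47 to 3.76 CPM in the second. No targeted gene is named, so the labels could not be checked against it, and the groups are named as labelled. An exchange of the line labels within 1 treatment was not tested, and in these data it cannot be told apart from a drug effect that differs between the lines. Every interaction and every direction that turned between the lines is reported under that limit. Of 8 squamous markers 6 exceeded 1 CPM, with Epcam and Cdh1 among the highest, while the basal markers Krt5 and Trp63 were close to 0 (highest group means 0.101 and 0.142 CPM). The squamous sum went from 1754 to 1866 CPM without drug to 1928 to 2003 CPM with it in EV-proficient cells. In EV-deficient cells it went from 2724 to 2936 CPM to 1482 to 1661 CPM. Of the 6 tested, paclitaxel raised 3 and lowered 2 in the former (31.1% and 27.1% of all genes). In the latter it raised 1 and lowered 5 (32.4% and 30.5%). Summed fibroblast markers were low but higher with paclitaxel, from 1.68 to 2.58 CPM without and 5.58 to 6.86 CPM with drug in EV-proficient cells, and 2.84 to 3.60 and 7.12 to 8.99 CPM in EV-deficient cells. Of these 8 markers 3 exceeded 1 CPM. Of the 6 fibroblast markers tested, 2 were called higher in EV-proficient cells (31.1% of all genes) and 3 in EV-deficient cells (32.4%). Summed endothelial markers lay between 1.77 and 4.35 CPM. Of the 3 tested, paclitaxel raised 1 in EV-proficient cells, where their median log2 change was -0.13, and 2 in EV-deficient cells (median 0.87). The others of both lists were not called. Summed proliferation markers went from 1823 to 2054 CPM without drug to 1569 to 1690 CPM with it in EV-proficient cells, and from 1967 to 2021 CPM to 1217 to 1376 CPM in EV-deficient cells. Of these 3 markers, 1 was called lower and 2 were not called in EV-proficient cells (27.1% of all genes were lower). All 3 were called lower in EV-deficient cells (30.5% of all genes). Mitochondrial genes took 0.550% to 0.720% and 0.846% to 0.907% of counts in the first line and 0.581% to 0.729% and 1.07% to 1.45% in the second. The fibroblast, endothelial and proliferation sums and the mitochondrial share each moved in the same direction with the drug in both lines, as Igfbp3, Igfbp5 and Igfbp7 did. The squamous sum turned between the lines as labelled, as Igfbp4 did. The part of these measures in the paclitaxel results was not tested. In bulk RNA, fewer cells of a type and less RNA per cell cannot be told apart.

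On the mouse genome (GRCm38, GENCODE M21), the members lie on 6 chromosomes and all are protein-coding. Igfbp2 (chr1:72824503-72852474, plus strand) and Igfbp5 (chr1:72857932-72874884, minus strand) are tail-to-tail neighbours 5457 bases apart with 0 genes between them. Igfbp3 (chr11:7206086-7213923, minus strand) lies 3539 bases from Igfbp1, and Igfbp4 (chr11:99041244-99054392, plus strand) lies far from both on the same chromosome. Igfbp6 is at chr15:102144362-102149511 (plus strand) and Igfbp7 at chr5:77349240-77408041 (minus strand). The receptors are Igf1r at chr7:67952827-68233668 (plus strand) and Igf2r at chr17:12682406-12769664 (minus strand).

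The promoters of Igfbp3, Igfbp4 and Igfbp7 are printed because these are the 3 binding-protein genes with substantial expression and each answered paclitaxel differently. Each is the 250 bases before the RefSeq start on GRCm38.p6, 5′ to 3′ along the gene, in lower case with matches to the motifs searched in capitals. They are chr11:7213924-7214173 (minus strand) for Igfbp3, chr11:99040994-99041243 (plus strand) for Igfbp4 and chr5:77408046-77408295 (minus strand) for Igfbp7.
Igfbp3: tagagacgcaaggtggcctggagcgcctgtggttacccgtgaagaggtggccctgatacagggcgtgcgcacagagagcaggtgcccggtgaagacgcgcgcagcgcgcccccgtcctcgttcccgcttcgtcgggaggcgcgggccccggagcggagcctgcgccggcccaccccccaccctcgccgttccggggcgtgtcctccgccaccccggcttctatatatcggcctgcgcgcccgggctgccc
Igfbp4: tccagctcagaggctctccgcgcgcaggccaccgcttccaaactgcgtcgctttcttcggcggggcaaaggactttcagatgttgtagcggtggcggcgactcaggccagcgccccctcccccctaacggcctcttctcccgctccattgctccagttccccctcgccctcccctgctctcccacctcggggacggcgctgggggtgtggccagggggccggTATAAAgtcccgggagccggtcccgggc
Igfbp7: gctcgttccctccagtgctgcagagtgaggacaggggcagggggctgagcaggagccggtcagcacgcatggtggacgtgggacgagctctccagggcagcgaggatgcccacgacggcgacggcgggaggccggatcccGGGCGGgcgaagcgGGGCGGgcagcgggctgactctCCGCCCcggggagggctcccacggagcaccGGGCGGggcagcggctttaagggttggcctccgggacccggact
The motifs searched on both strands were the GC box GGGCGG, the CCAAT box CCAAT, the TATA box TATAAA, a FoxO site GTAAACA, an AP-1 site TGANTCA, an E box CACGTG and an interferon-response core GAAANNGAAA. The Igfbp7 promoter held 4 GC boxes, with their first base 110, 96, 74 and 44 bases before the start, the one at 74 on the opposite strand (CCGCCC). The Igfbp4 promoter held 1 TATA box, 28 bases before the start, and the Igfbp3 window held none of the motifs. Over all 32851 RefSeq promoters of this length, 32.7% held a GC box and 12.4% a TATA box. The other shares were 33.8% for CCAAT, 3.17% for the FoxO site, 6.75% for AP-1, 6.02% for the E box and 2.98% for the interferon-response core. All 3 windows were rich in CpG, with 32, 22 and 26 CpG dinucleotides for Igfbp3, Igfbp4 and Igfbp7 against a median of 6. These matches describe the letters only.

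Levels are compared between genes as RPKM, which is CPM per kilobase of annotated exon. In EV-proficient DMSO cells Igfbp3 was the most abundant member at 279 RPKM, followed by Igfbp7 at 55.5, Igf2r at 21.7, Igf1r at 6.36 and Igfbp4 at 3.40 RPKM. Igfbp2, Igfbp5 and Igfbp6 each stayed at or below 0.111 RPKM in all 4 groups. Summed over Igfbp1 to Igfbp7, RPKM went from 338 to 448 with paclitaxel in the EV-proficient line and from 333 to 408 in the EV-deficient line. Igfbp3 made up 82.6% ± 0.919 (SD, n = 3) of that sum in EV-proficient DMSO and 46.6% ± 2.39 under paclitaxel. In EV-deficient cells its share was 76.5% ± 0.464 under DMSO and 48.9% ± 4.44 under paclitaxel. Igfbp7 supplied most of the rest, going from 16.4% to 47.7% in the EV-proficient and from 19.5% to 48.9% in the EV-deficient line, so that under paclitaxel Igfbp3 and Igfbp7 held near-equal shares in both lines. Which of the pair was higher under paclitaxel, and how close they lay, depended on the transcript length used. With the longest transcript in place of all annotated exons, Igfbp3 was the higher in both lines. It then stood at 270 and 257 RPKM under paclitaxel, in place of 209 and 198 RPKM. The 2 lengths of Igfbp7, 1209 and 1200 bases, were close to each other. Igfbp4 was the minor component throughout, going from 1.01% to 5.70% and from 4.02% to 2.16%.

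**Figure D1:**
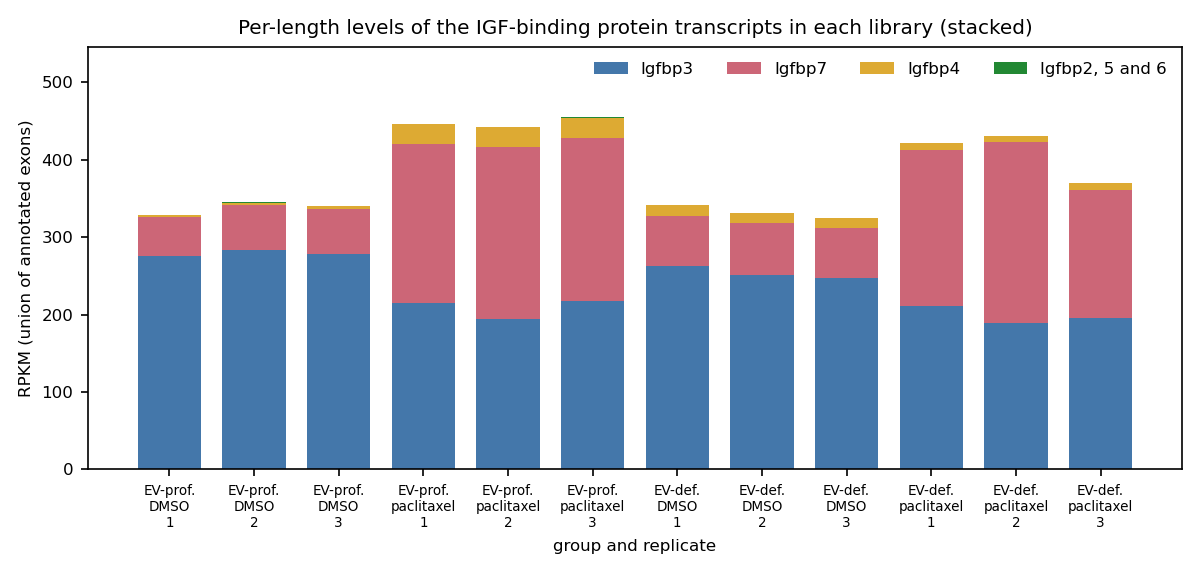
Stacked bars give the RPKM (y axis) of the IGF-binding protein transcripts in each of the 12 libraries (x axis), colours marking the gene. Igfbp3 filled most of each DMSO bar, and in the paclitaxel bars Igfbp7 rose to a share close to that of Igfbp3. The closeness holds for all annotated exons as the length, as plotted, and Igfbp3 was the higher with the longest transcript.

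Paclitaxel changed all 6 tested members in EV-proficient cells (4 higher, 2 lower), in a comparison in which 58.2% of the 18108 tested genes passed an adjusted p of 0.05 in edgeR's quasi-likelihood test. In EV-deficient cells it changed 5 of 6 (3 higher, 2 lower), where 62.9% of all genes passed. Over all genes, 31.1% rose and 27.1% fell in the first line, and 32.4% and 30.5% in the second. A call with at least a 2-fold change was made for 3 of 6 members (21.9% of all genes) and 2 of 6 (25.2%). Groups did not overlap for 6 of 6 members in EV-proficient cells (62.3% of all genes) and 5 of 6 in EV-deficient cells (68.7%). The members called, called with at least a 2-fold change and without overlap include Igfbp5 in both lines. It passed the low-count filter only through its paclitaxel libraries. With so many genes changing, these counts set the members little apart. Each line has its own DMSO controls.

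Igfbp3, the main carrier of IGFs in serum and a binding protein with reported growth-inhibitory actions of its own, was the member with the highest level in CPM and fell with paclitaxel in both lines. Its values were 862, 873 and 886 CPM in EV-proficient DMSO and 607, 673 and 681 CPM in EV-proficient paclitaxel. EV-deficient cells gave 776, 788 and 824 CPM under DMSO and 594, 611 and 659 CPM under paclitaxel. All 6 DMSO libraries lay above all 6 paclitaxel libraries. The share of all genes with such an order was not counted. Within the EV-proficient and EV-deficient lines, 62.3% and 68.7% of all genes had groups that did not overlap. The log2 fold change was -0.42 ± 0.06 (SE, n = 3 against 3, edgeR adjusted p = 3.08e-06) in EV-proficient cells and -0.36 ± 0.06 (adjusted p = 1.92e-05) in EV-deficient cells. The effects did not differ by a test of the interaction (0.06 ± 0.08, adjusted p = 0.606). With upper-quartile scaling, which lifted the median of all genes in the EV-deficient comparison from 0.07 to 0.26, the Igfbp3 value there was -0.17.

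Igfbp7, also called IGFBP-rP1 or angiomodulin, binds IGFs weakly, binds insulin, and is a secreted factor linked to oncogene-induced senescence. It rose with paclitaxel in both lines. EV-proficient libraries went from 61.3, 69.6 and 70.6 CPM under DMSO to 249, 255 and 270.2 CPM under paclitaxel. EV-deficient libraries went from 77.0, 78.1 and 80.2 CPM to 201, 244 and 282 CPM. The lowest paclitaxel library stood far above the highest DMSO library, and the EV-deficient paclitaxel libraries were the most scattered (SD 40.4 CPM). The rise was 3.85-fold in EV-proficient cells (log2 1.94 ± 0.09, edgeR adjusted p = 2.8e-13) and 3.09-fold in EV-deficient cells (1.63 ± 0.09, adjusted p = 1.4e-12). The difference between these rises, -0.32 ± 0.12 (adjusted p = 0.0464), lay at the edge of the threshold and missed it in 13 of 19 alternatives, 9 of them leaving out 1 library. Across those alternatives its value ran from -0.39 to -0.16, with adjusted p up to 0.232. The 3' end of Igfbp7 overlaps Polr2b on the opposite strand, and whether strand was used in counting is not given in the sources used here. Polr2b itself was lower under paclitaxel, with means of 157 and 127 CPM in EV-proficient and 189.6 and 120.2 CPM in EV-deficient cells, opposite to Igfbp7. A second opposite-strand gene inside Igfbp7, Gm34648, moved the same way as Igfbp7, from 0.0499 to 0.277 CPM and from 0.0883 to 0.355 CPM, levels far below it. The part of reads from Polr2b and Gm34648 in the Igfbp7 counts was not tested.

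Igfbp4, a binding protein that mainly inhibits IGF action and is cut by the protease Pappa, was the member that separated all 4 groups. Its values were 13.9, 15.2 and 16.0 CPM in EV-proficient DMSO and 109.9, 114 and 115 CPM in EV-proficient paclitaxel. In EV-deficient cells they were 56.0, 58.9 and 62.1 CPM under DMSO and 36.6, 39.1 and 40.5 CPM under paclitaxel. No group's range touched another's, with both EV-deficient groups lying between the EV-proficient ones. The share of all genes that separate all 4 groups was not counted. In the 4 comparisons of 2 groups, between 43.3% and 68.7% of all genes did not overlap. The pair of groups that was high for Igfbp4, EV-proficient paclitaxel and EV-deficient DMSO, was the pair that was low for the dngfr row and on the second principal component, and the part of this grouping in the result was not tested. With the line labels of the paclitaxel libraries exchanged, the same means would read 15.0 to 38.8 CPM and 59.0 to 113 CPM, higher with drug in both lines. Paclitaxel raised it 7.52-fold in EV-proficient cells (log2 2.91 ± 0.07, edgeR adjusted p = 7.13e-17) and lowered it 1.52-fold in EV-deficient cells (-0.61 ± 0.07, adjusted p = 9.4e-08). The interaction was -3.52 ± 0.10 (adjusted p = 1.39e-16), and paclitaxel calls of opposite sign in the 2 lines were made for 7.09% of all tested genes. These directions and calls held in all 20 alternatives of each paclitaxel comparison and all 19 of the interaction.

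Igfbp5, the most conserved binding protein and one with affinity for extracellular matrix, was near the detection limit without drug and rose with paclitaxel. It had 4, 5 and 0 counts in EV-proficient DMSO and 10, 16 and 14 counts in EV-proficient paclitaxel. EV-deficient libraries had 0, 1 and 3 counts under DMSO and 29, 37 and 40 counts under paclitaxel. In each line the paclitaxel libraries lay above their DMSO controls. Summed over libraries and scaled for depth, the ratio was 3.93 in EV-proficient cells (95% counting interval 1.88 to 9.22) and 24.6 in EV-deficient cells (9.35 to 92.1), and these intervals cover counting error only. Igfbp5 passed the low-count filter only through its paclitaxel libraries, as its DMSO counts lay below the minimum count of 10. Its tests thus depend on the groups in which it was high. In EV-proficient cells it could be fitted in 18 alternatives, beside 20 for Igfbp4. The fitted log2 changes were 2.10 ± 0.78 (edgeR adjusted p = 0.0264) and 4.48 ± 0.84 (adjusted p = 7.93e-05). The first lost its call without EV-proficient DMSO replicate 3 (1.59, adjusted p = 0.104) or without EV-proficient paclitaxel replicate 3 (1.61, adjusted p = 0.114). The second kept its call in 19 alternatives, but as 3 of its 4 DMSO counts lay in 1 library its value was 5.74 without EV-deficient DMSO replicate 3 and 3.86 without replicate 1. The interaction of 2.38 ± 1.22 did not pass (adjusted p = 0.128).

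Igfbp2, the neighbour of Igfbp5 and in many tumours a growth-promoting binding protein, had 3, 4 and 2 counts in EV-proficient DMSO and 10, 5 and 3 counts in EV-proficient paclitaxel. In EV-deficient cells the counts were 0, 2 and 0 under DMSO and 15, 9 and 5 under paclitaxel. In the latter line every paclitaxel library exceeded every DMSO library, while the EV-proficient groups overlapped. The depth-scaled ratio was 13.5 in EV-deficient cells (95% counting interval 3.41 to 117) and 1.77 in EV-proficient cells (0.755 to 4.47). Fitted without the low-count filter, the EV-deficient change was 3.497 on the log2 scale (edgeR adjusted p = 0.0183), where 32.8% of all genes passed. The EV-proficient change in that fit was 0.84 (adjusted p = 0.638). The interaction of 2.66 ± 1.65 did not pass (adjusted p = 0.317), so a difference between the lines was not shown. Igfbp6, which prefers IGF2, had between 0 and 5 counts per library. None of its 4 ratios had an interval that left out 1, and a difference was not detectable at this depth. Igfbp1 had 0 counts in all 12 libraries, where the limit that a count of 0 allows, 3 counts, is between 0.0492 and 0.121 CPM.

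The receptor genes moved little. Igf1r, the signalling receptor, stood at 101, 107 and 113 CPM in EV-proficient DMSO and 122, 126 and 132 CPM in EV-proficient paclitaxel. EV-deficient libraries gave 112, 114 and 114 CPM under DMSO and 119, 133 and 140.0 CPM under paclitaxel. Paclitaxel libraries were higher in both lines without overlap. The rise was 0.25 ± 0.07 on the log2 scale in EV-proficient cells (edgeR adjusted p = 0.0028) and 0.21 ± 0.07 in EV-deficient cells (adjusted p = 0.00941). Igf1r lost its call in EV-proficient cells without paclitaxel replicate 1 (0.17, adjusted p = 0.0564), and in EV-deficient cells without DMSO replicate 2 (0.18, adjusted p = 0.0519) or without the low-count filter (0.17, adjusted p = 0.0535). With upper-quartile scaling the EV-deficient value was 0.39.

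Igf2r, the clearance and sorting receptor, stood at 187, 188 and 231 CPM in EV-proficient DMSO and 143, 169.8 and 174 CPM in EV-proficient paclitaxel. In EV-deficient cells it stood at 185, 200.2 and 205 CPM under DMSO and 197, 232 and 235 CPM under paclitaxel. The EV-proficient groups did not overlap and the EV-deficient groups did. It fell in EV-proficient cells (-0.31 ± 0.09, edgeR adjusted p = 0.00436), a call that needed DMSO replicate 1 (-0.20, adjusted p = 0.0521 without it). In EV-deficient cells the change was 0.17 ± 0.09 (adjusted p = 0.0958), and 4 of 20 alternatives, upper-quartile scaling among them (0.35, adjusted p = 0.00187), brought it past the threshold. The difference between the lines, 0.48 ± 0.12 (adjusted p = 0.00336), passed in all 19 alternatives. The antisense transcript Airn overlaps Igf2r and had mean levels of 2.35 and 4.02 CPM in the DMSO and paclitaxel groups of the EV-proficient line and 3.70 and 4.53 CPM in those of the EV-deficient line. Reads from the shared stretch cannot be told apart without strand. The levels of Igf2r were 143 to 235 CPM, and the part of Airn reads in them was not tested.

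**Figure D2:**
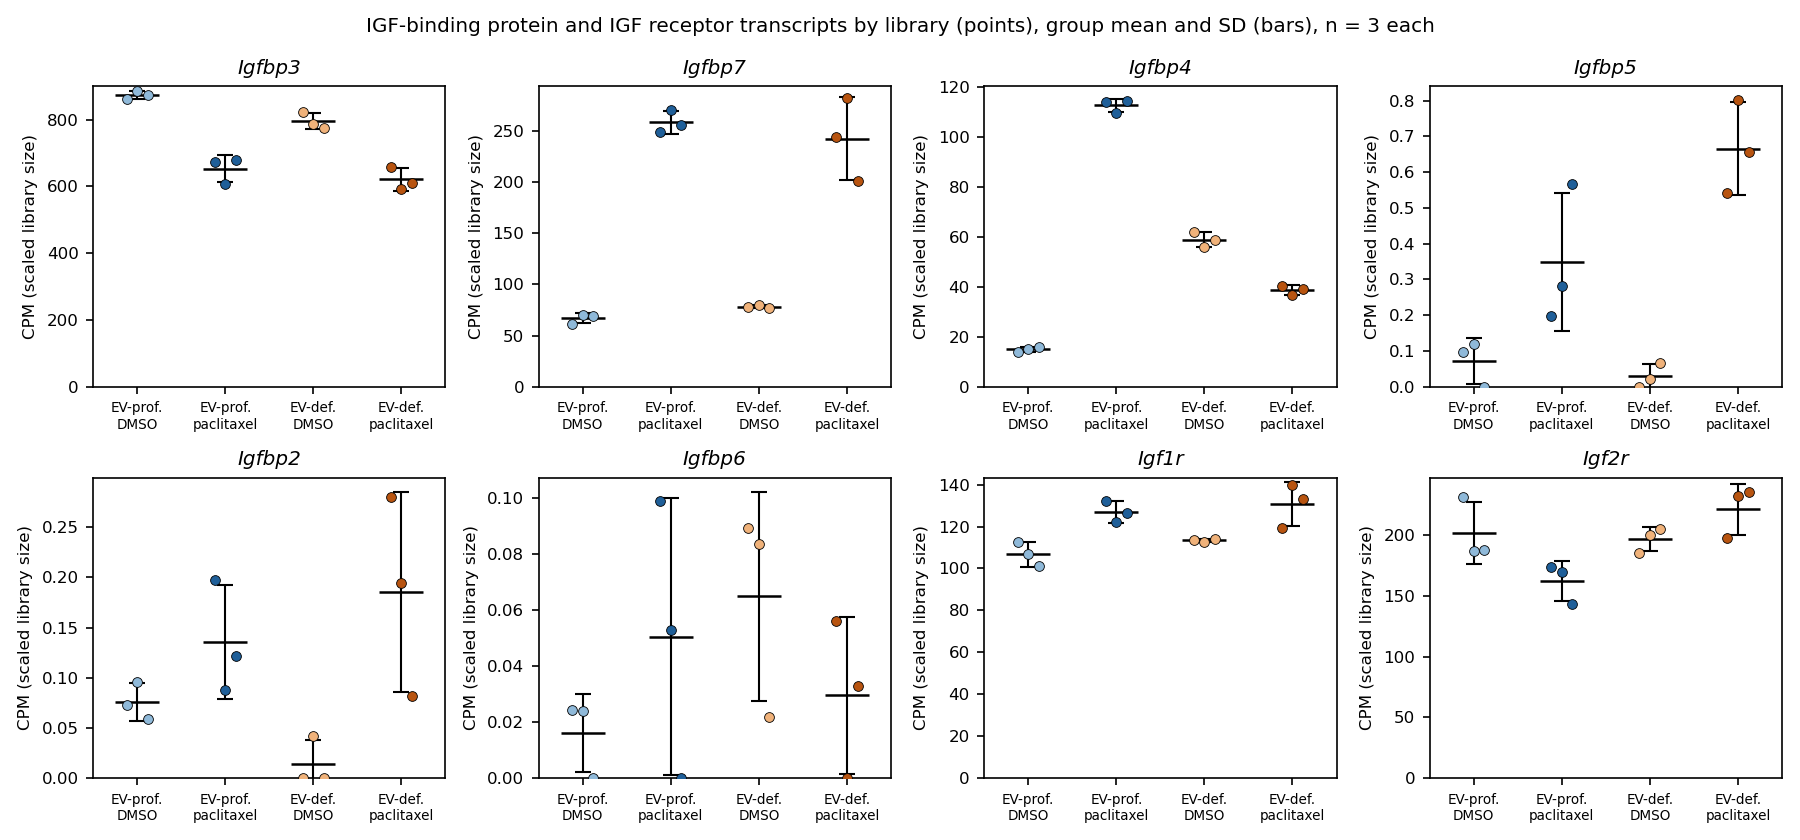
Each panel plots 1 member, with CPM on scaled library sizes on the y axis from 0 and the 4 groups on the x axis; points are the 3 libraries of a group and bars the mean and SD. Igfbp4 formed 4 separate levels, Igfbp7 was high in both paclitaxel groups, Igfbp3 was lower in them, and Igfbp2, Igfbp5 and Igfbp6 stayed below 1 CPM.

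Between the EV labels without drug, Igfbp4 was the single member called of 6 (23.0% of all genes passed). Of all genes 12.4% were higher and 10.6% lower in EV-deficient cells, and 5.01% passed with at least a 2-fold difference, as Igfbp4 did. Groups did not overlap for 3 of 6 members, Igfbp3, Igfbp4 and Igfbp7 (43.3% of all genes). Igfbp4 was 3.93-fold higher in EV-deficient cells (log2 1.98 ± 0.07, edgeR adjusted p = 2.92e-14). The other differences were -0.13 ± 0.06 for Igfbp3, 0.22 ± 0.09 for Igfbp7, 0.09 ± 0.07 for Igf1r, -0.04 ± 0.09 for Igf2r and -1.39 ± 1.03 for Igfbp5, with adjusted p from 0.0755 to 0.821. Of these, Igfbp3 passed in 9 and Igfbp7 in 4 of 20 alternatives, so between 1 and 3 members were called according to the setting. The share of all genes that passed ran from 12.7% to 36.6% over the settings.

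Under paclitaxel 2 of 6 members differed between the EV labels (37.8% of all genes passed, 16.0% higher and 21.8% lower), and for the same 2 the groups did not overlap (44.1% of all genes). Igfbp4 was now 2.91-fold lower in EV-deficient cells (log2 -1.54 ± 0.07, edgeR adjusted p = 6.09e-13), the reverse of its order without drug, and the single member called with at least a 2-fold difference (8.68% of all genes). Calls of opposite sign under the 2 treatments were made for 15.0% of all tested genes. Igf2r was 1.36-fold higher in EV-deficient cells (log2 0.45 ± 0.09, adjusted p = 0.000391). Igfbp3 (-0.07 ± 0.06), Igfbp7 (-0.09 ± 0.09), Igf1r (0.04 ± 0.07) and Igfbp5 (1.00 ± 0.63) did not pass, with adjusted p from 0.232 to 0.642. In the interaction 3 of 6 members passed, where 40.7% of all genes passed: Igf2r with a positive sign (16.9% of all genes), and Igfbp4 and Igfbp7 with a negative one (23.8%). Igfbp4 alone did so with at least a 2-fold difference (13.9%).

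**Figure D3:**
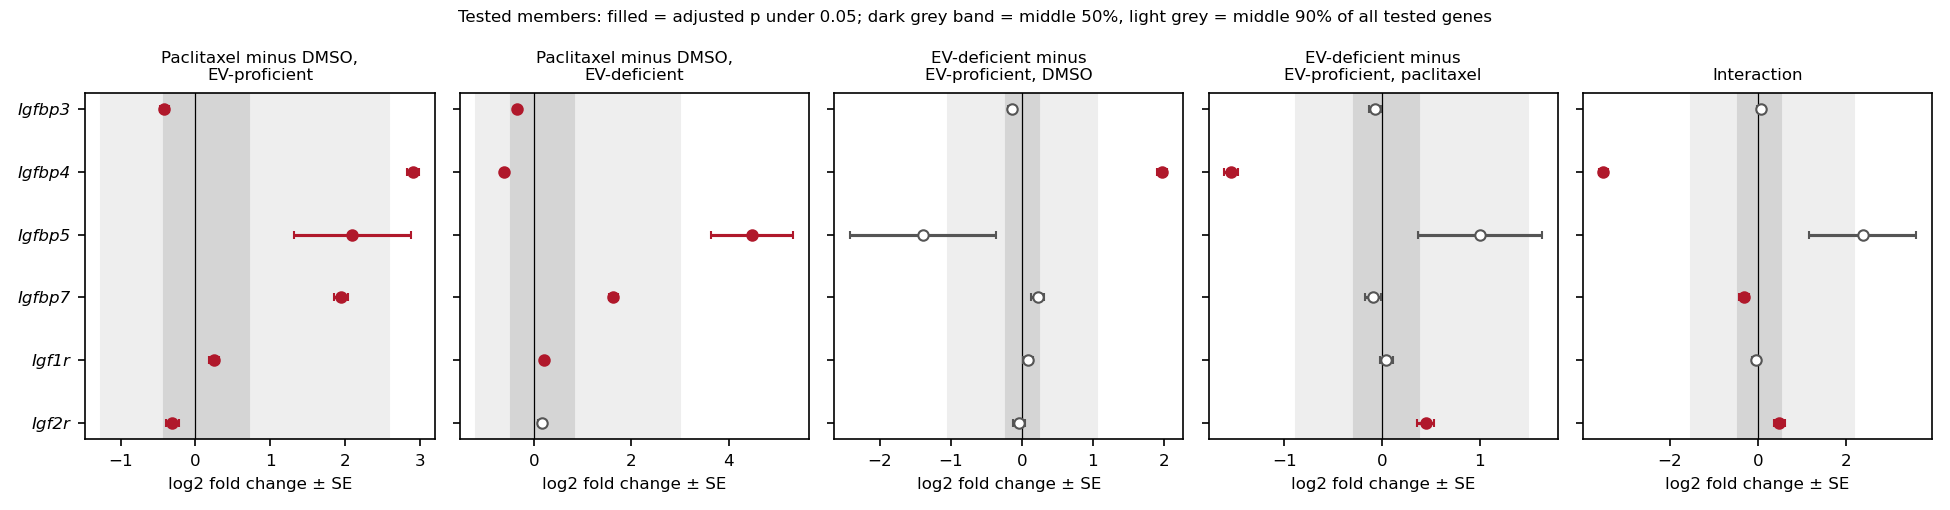
Each panel is 1 comparison, with the log2 fold change and its SE on the x axis and the 6 tested members on the y axis; filled points passed an adjusted p of 0.05, and the grey bands hold the middle 50% and 90% of all tested genes. Igfbp4 lay outside the 90% band in the EV-proficient paclitaxel comparison (2.91), both EV-label comparisons (1.98 and -1.54) and the interaction (-3.52), as did Igfbp5 with paclitaxel in EV-deficient cells (4.48) and, without a call, between the EV labels under DMSO (-1.39) and in the interaction (2.38), while Igfbp3, Igf1r and Igf2r stayed near 0.

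The genes around the members were taken from 7 lists of the IGF axis, 80 genes of which 71 were tested. Paclitaxel changed 48 of the 71 in EV-proficient cells (23 higher, 25 lower), 67.6% beside 58.2% of all genes. In EV-deficient cells it changed 58 (29 higher, 29 lower), 81.7% beside 62.9%. Between the EV labels, 26 differed without drug (12 higher, 14 lower in EV-deficient cells), 36.6% beside 23.0%, and 39 under paclitaxel (21 higher, 18 lower), 54.9% beside 37.8%. The background depends on the filter. With at least 1 CPM required in 3 libraries, 70.8% and 73.9% of 13519 genes passed with paclitaxel in EV-proficient and EV-deficient cells. Between the EV labels 31.6% passed without drug and 47.6% under paclitaxel. The shares of the lists are not given with that filter. For the lists below, the shares of all genes are 31.1% higher and 27.1% lower with paclitaxel in EV-proficient cells and 32.4% and 30.5% in EV-deficient cells. The median log2 change of the 71 lay between -0.01 and 0.07 in these comparisons, beside medians between -0.005 and 0.07 over all genes.

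IGF ligands were close to absent in these cells. Igf1, the growth-hormone-dependent ligand, had 0 to 18 counts per library, and Igf2, the fetal and imprinted ligand, 0 to 10 counts with 0 in all 3 EV-proficient DMSO libraries. Ins1 and Ins2 had 0 counts throughout. The single tested gene of this list of 7 was Igfals, the acid-labile subunit of the circulating IGF complex, at group means of 0.0439 to 0.412 CPM. It had 3, 0 and 2 counts in EV-proficient DMSO and 3, 28 and 3 counts in EV-proficient paclitaxel, so that 1 library carried the difference and the groups overlapped. The value of 2.39 ± 1.02 passed narrowly (edgeR adjusted p = 0.0496), missed the threshold in 13 of 18 alternatives, and was 0.87 (adjusted p = 0.574) without EV-proficient paclitaxel replicate 2.

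Among the proteases that cut IGF-binding proteins and their inhibitors, paclitaxel raised 6 and lowered 1 of 10 tested genes in EV-proficient cells (median 0.37, all genes 0.05, with 31.1% higher and 27.1% lower) and raised 6 and lowered 4 in EV-deficient cells (median 0.46, all genes 0.07, with 32.4% and 30.5%). Pappa, a metalloprotease that cuts Igfbp4, stood at 8.30, 8.31 and 9.87 CPM in EV-proficient DMSO and 2.49, 2.496 and 4.37 CPM in EV-proficient paclitaxel. EV-deficient libraries gave 5.07, 5.12 and 7.28 CPM under DMSO and 5.52, 7.70 and 13.6 CPM under paclitaxel. The EV-proficient groups were apart, with paclitaxel the lower, and the EV-deficient groups overlapped. Pappa fell in EV-proficient cells (-1.55 ± 0.27, edgeR adjusted p = 3.47e-05), the line and condition in which Igfbp4 rose. Its rise in EV-deficient cells (0.63 ± 0.25, adjusted p = 0.0319) rested on paclitaxel replicate 3 (0.18, adjusted p = 0.478 without it). The rise also missed the threshold with DESeq2 (adjusted p = 0.105), with the 2 groups fitted alone (0.0563), and without DMSO replicate 1 (0.122) or 3 (0.118).

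Stc2, a stanniocalcin that blocks the protease activity of Pappa, stood at 11.4, 11.9 and 12.8 CPM in EV-proficient DMSO and 36.8, 38.3 and 42.4 CPM in EV-proficient paclitaxel. In EV-deficient cells it went from 35.4, 36.7 and 37.0 CPM under DMSO to 8.40, 9.34 and 9.50 CPM under paclitaxel. As with Igfbp4, the drug's direction turned between the lines as labelled, and the groups fell into the same pairs as for dngfr and the second principal component. With the line labels of the paclitaxel libraries exchanged, the means would read 12.03 to 9.08 CPM and 36.4 to 39.2 CPM. Stc2 rose in EV-proficient cells (1.71 ± 0.09, edgeR adjusted p = 8.6e-13) and fell in EV-deficient cells (-2.003 ± 0.09, adjusted p = 4.87e-14). Htra1, a secreted serine protease able to cut IGF-binding proteins, likewise rose in the first line (0.34 ± 0.06, adjusted p = 1.73e-05) and fell in the second (-0.92 ± 0.06, adjusted p = 7.76e-12). Plat, the tissue plasminogen activator, rose in both, by 0.75 ± 0.08 and 2.44 ± 0.09 (adjusted p = 9.01e-08 and 2.88e-15). The related stanniocalcin Stc1 was scarce, with group means of 0.0357 to 0.344 CPM. In EV-deficient cells it had 6, 0 and 0 counts under DMSO and 12, 23 and 19 under paclitaxel, a called rise (3.06 ± 0.92, adjusted p = 0.00653) that ran from 2.53 to 6.98 when 1 library was left out. In EV-proficient cells the Stc1 value was 0.37 ± 1.03 (adjusted p = 0.78). Pappa2, a relative of Pappa, rose in both lines, by 1.99 and 2.16 on the log2 scale (edgeR adjusted p = 0.0014 and 0.000221). Each call held in all 19 alternatives. Stc1 and Pappa2 fell below the 5 CPM of the naming rule and are named outside it.

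**Figure D4:**
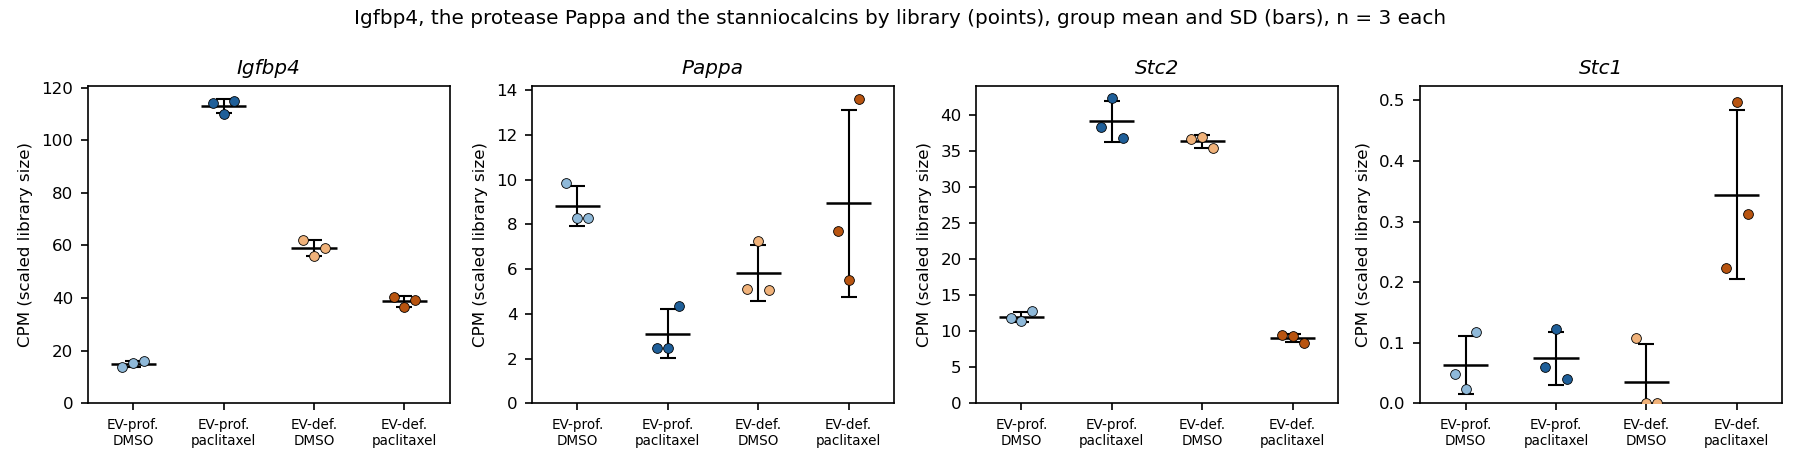
Panels plot CPM (y axis, from 0) of Igfbp4, Pappa, Stc2 and Stc1 in the 4 groups (x axis), with points for the 3 libraries of a group and bars for the mean and SD. Igfbp4 and Stc2 were both lowest or near-lowest in EV-proficient DMSO and highest in EV-proficient paclitaxel, where Pappa was lowest.

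Of the 11 tested receptors and adaptors of the insulin family, 3 rose and 4 fell in EV-proficient cells (median -0.01, all genes 0.05) and 5 rose and 3 fell in EV-deficient cells (median 0.15, all genes 0.07). Over all genes 31.1% rose and 27.1% fell in the first line, and 32.4% and 30.5% in the second. Insr, the insulin receptor, which also pairs with the IGF1 receptor as a hybrid, rose in both lines, by 0.99 ± 0.09 and 0.74 ± 0.09 (edgeR adjusted p = 4.8e-09 and 2.21e-07). On the per-length scale Insr went from 3.83 to 7.58 RPKM in EV-proficient and from 4.41 to 7.36 RPKM in EV-deficient cells. Igf1r had 6.36 and 7.56 RPKM in the former and 6.75 and 7.79 RPKM in the latter, and Insr was the lower receptor without drug and close to Igf1r under paclitaxel. With the longest transcript Igf1r stood at 11.1 and 11.5 RPKM under paclitaxel, and Insr was not recomputed with it. Gab1, a docking protein, also rose in both lines (1.19 ± 0.09 and 0.93 ± 0.09, adjusted p = 3.52e-10 and 7.34e-09). Irs2, a substrate of both receptors, rose by 1.08 ± 0.07 and 0.26 ± 0.07 (adjusted p = 4.54e-11 and 0.00269), the latter 0.45 with upper-quartile scaling. Its partner Irs1, named here after its values were seen, fell in EV-proficient cells (-0.90 ± 0.10, adjusted p = 1.34e-07) and rose in EV-deficient cells (0.80 ± 0.10, adjusted p = 4.98e-07). Socs2, a feedback inhibitor of growth-hormone signalling, had the same turn, -0.53 ± 0.10 and 0.97 ± 0.10 (adjusted p = 0.000126 and 2.27e-08).

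In the PI3K-AKT-mTOR arm, 11 of 22 genes rose and 6 fell in EV-proficient cells (median 0.15, all genes 0.05), and 9 rose and 9 fell in EV-deficient cells (median 0.04, all genes 0.07). The shares of all genes were 31.1% and 27.1%, and 32.4% and 30.5%. Akt1, the main AKT kinase of these cells by count, fell in both lines, from 552 to 288 CPM and from 477 to 240.4 CPM on group means (-0.94 ± 0.07 and -0.99 ± 0.07, edgeR adjusted p = 2.16e-10 and 5.65e-11). Pik3cd, a catalytic PI3K subunit best known from leukocytes, rose by 1.22 ± 0.10 and 2.96 ± 0.10 (adjusted p = 1.26e-09 and 2.98e-15). Foxo3, a transcription factor that AKT keeps out of the nucleus, rose in EV-proficient cells (1.22 ± 0.07, adjusted p = 4.2e-12), and its value in EV-deficient cells was 0.11 ± 0.07 (adjusted p = 0.158). The leukocyte markers summed to 1.32 to 1.46 CPM in the DMSO group and 11.996 to 13.5 CPM in the paclitaxel group of the EV-proficient line. In the EV-deficient line the sums were 12.98 to 13.6 and 5.09 to 7.87 CPM. Csf1r carried most of that sum, with group means of 0.944, 11.6, 12.4 and 5.34 CPM, while Cd3e and Adgre1 stayed at or near 0. Of the 6 markers 2 exceeded 1 CPM, and the part of such cells in the Igfbp4 and Pik3cd results was not tested.

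A list of the 6 CCN genes, matricellular proteins once counted as IGFBP-related, and Esm1, which is no CCN gene but was once grouped with them, had 1 gene raised and 2 lowered of 7 in EV-proficient cells (median 0.18, all genes 0.05). In EV-deficient cells 4 were raised and 1 lowered (median 0.52, all genes 0.07). Esm1 was called in neither line, and over all genes 31.1% rose and 27.1% fell in the first and 32.4% and 30.5% in the second. Cyr61, a target of YAP signalling that supports adhesion, fell in both lines (-1.07 ± 0.05 and -1.08 ± 0.05, edgeR adjusted p = 1.11e-12 and 4.71e-13). Ctgf, a profibrotic member of the family, rose in EV-deficient cells by 0.39 ± 0.06 (adjusted p = 4.95e-06) from a group mean of 710.0 to 931 CPM. In EV-proficient cells its change was 0.18 ± 0.06 (adjusted p = 0.0126), a call lost without paclitaxel replicate 1 (0.10, adjusted p = 0.189) or 3 (0.12, adjusted p = 0.107), or without EV-deficient paclitaxel replicate 1 (0.13, adjusted p = 0.0564).

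The 17 sorting partners of Igf2r, which tag lysosomal enzymes with mannose 6-phosphate or carry the receptor between compartments, were more often lower than higher with paclitaxel. In EV-proficient cells 0 rose and 11 fell (median -0.35, all genes 0.05, with 31.1% higher and 27.1% lower), in the line in which Igf2r itself fell. In EV-deficient cells 5 rose and 10 fell (median -0.26, all genes 0.07, with 32.4% higher and 30.5% lower). The difference of the list from other genes was not tested. Nagpa, the enzyme that uncovers the mannose-6-phosphate tag, fell in both lines (-1.53 ± 0.13 and -1.12 ± 0.13, edgeR adjusted p = 3.07e-09 and 1.18e-07). Ap1m1, a subunit of the AP-1 clathrin adaptor, fell by 1.33 and by 0.74 on the log2 scale (adjusted p = 4.43e-12 and 1.48e-08). Ap1s1, of the same adaptor, fell by 1.27 in EV-proficient cells (adjusted p = 9.2e-12). In EV-deficient cells its change was -0.23 ± 0.07 (adjusted p = 0.0111), lost with upper-quartile scaling (-0.04, adjusted p = 0.633), with a filter of 1 CPM (-0.16, adjusted p = 0.0554) and without paclitaxel replicate 2 (-0.13, adjusted p = 0.0802). Gnptg, a subunit of the phosphotransferase that lays down the tag, fell in EV-deficient cells (-0.95 ± 0.16, adjusted p = 2.5e-05) and gave -0.35 ± 0.16 in EV-proficient cells (adjusted p = 0.0665).

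The IGF2 mRNA-binding proteins, which stabilise transcripts in fetal and tumour cells, were all expressed. Igf2bp1 fell in both lines (-0.96 ± 0.07 and -0.41 ± 0.07, edgeR adjusted p = 3.95e-10 and 4.56e-05), the latter -0.22 with upper-quartile scaling. Igf2bp2 rose in EV-proficient cells (0.39 ± 0.06, adjusted p = 3.32e-06), and its value in EV-deficient cells was 0.05 ± 0.05 (adjusted p = 0.469). Igf2bp3 had group means between 44.3 and 50.05 CPM in the 4 groups. It was called lower with paclitaxel in EV-deficient cells (-0.18, adjusted p = 0.0243) and not called in EV-proficient cells. That call was lost in 3 of 20 alternatives, and the sign changed in 1 more.

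**Figure D5:**
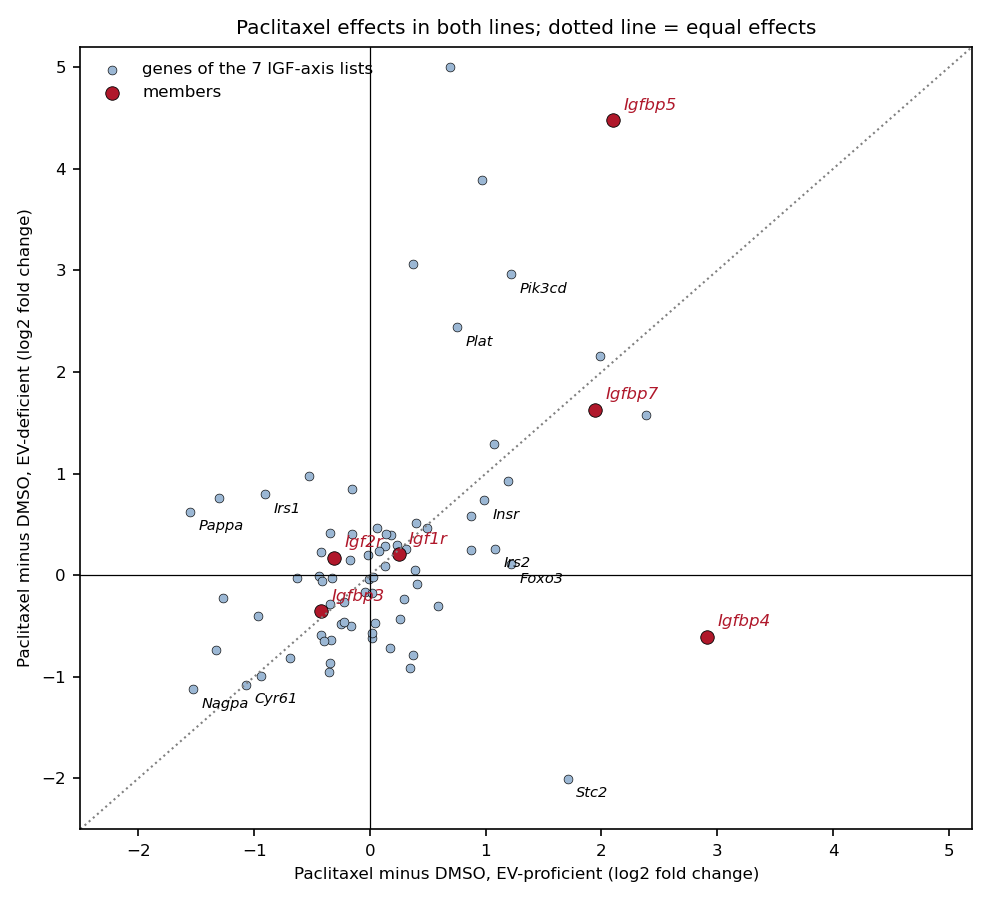
Each point is a tested gene, with its log2 fold change under paclitaxel in EV-proficient cells on the x axis and in EV-deficient cells on the y axis; red points are the 6 tested members, blue points the genes of the 7 lists, and the dotted line marks equal effects. Igfbp7 and Igf1r lay near the line, and Igfbp4 (2.91 and -0.61) and Stc2 (1.71 and -2.003) lay far below it.

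Genes with the most similar profile over the 12 libraries were looked up by Pearson correlation of log2 CPM, among 9927 genes (9928 for Igfbp5) with a mean of at least 5 CPM, as a description in which the libraries share treatment and line. Igfbp3 was closest to Rdx (r = 0.989), Tpst1 (0.985) and Tirap (0.983). Igfbp4 was closest to Moxd1 (r = 0.993), Pcbp3 (0.988) and Cxxc5 (0.987). Moxd1 had group means of 2.78 and 13.1 CPM in the DMSO and paclitaxel groups of the EV-proficient line and 7.68 and 5.99 CPM in those of the EV-deficient line, the group order of Igfbp4. Igfbp7 was closest to Trib2 (r = 0.997), Pdcd4 (0.997) and Capn5 (0.996), and Pdcd4, a translation inhibitor, went from 2.17 to 42.4 CPM and from 3.43 to 34.0 CPM with paclitaxel. Igfbp5 was closest to Nudt7 (r = 0.967), Akap17b (0.966) and Pja2 (0.957). For the receptors these were Braf (r = 0.963), Ubn2 (0.963) and Zfp955b (0.959) for Igf1r, and Rnf213 (r = 0.972), Nktr (0.954) and Rbm4b (0.947) for Igf2r.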

How the data were processed

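Counts are the authors' deposited whole read counts per gene, not normalized, from stranded poly(A) libraries per the labels' protocols. STAR 2.5.0a and GRCm38 are named in the submitters' processing notes. The counting program, the annotation release and the use of strand are not given in the sources used here. Groups came from sample titles and treatment labels. Rows for gfp (0 counts) and dngfr sequences were left out of library sizes and tests.

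The counts went into edgeR 4.0.16 under R 4.3.3. Its filterByExpr function (minimum count 10) left 18108 of 35104 detected genes. Libraries were scaled by the trimmed mean of M values (factors 0.890 to 1.15). A single quasi-likelihood model then gave every group its own mean over the 12 libraries (common dispersion 0.00956). P-values were adjusted by Benjamini-Hochberg over all tested genes of each of 5 comparisons, with a threshold of 0.05. SE was taken as the log2 change over the root of its F statistic. CPM uses scaled library sizes, and log2 CPM a prior count of 2. RPKM uses GENCODE M21 exon unions (99.7% of Ensembl genes matched). Replicates differed by more than sampling noise (chi-square per degree of freedom 4.49 to 31.3). The fits were first tested on simulated data.

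The members and lists were chosen with earlier results of these data known. From every list up to 4 genes were named (1 of them is not reported here): the largest absolute changes in a simple comparison, given a call somewhere and a highest group mean of 5 CPM or more. Igf1, Igf2, Insr and Igfbp1 were named whatever their values, and the 3 most similar genes were named for each tested member. Irs1, Stc1, Pappa2 and Igfals were named outside these rules. Promoters came from RefSeq (GRCm38.p6). The alternatives tried were upper-quartile or median-of-ratios factors, dropping the filter or requiring 1 CPM in 3 libraries, DESeq2 1.42.0 and limma-voom 3.58.1 as tests, a block for the replicate number, a fit of the compared groups alone, omission of each library, and, for RPKM, the longest transcript and unscaled totals.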

Additional observations from a re-analysis of the deposited data

Results flagged for a closer look

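For 3 members the paclitaxel effect differed between the lines by the interaction test of edgeR (EV-deficient minus EV-proficient, log2, 3 libraries a group). The difference was -3.52 ± 0.10 for Igfbp4 (adjusted p = 1.39e-16), 0.48 ± 0.12 for Igf2r (adjusted p = 0.00336) and -0.32 ± 0.12 for Igfbp7 (adjusted p = 0.0464), the last lost in 13 of 19 alternatives.

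Over the lists the same test passed for 40 of 71 genes (56.3%, 20 positive and 20 negative), beside 40.7% of all genes. With at least 1 CPM required in 3 libraries, the share of all genes was 51.5%. The 15 given here are Irs1, named after its values were seen, and genes named for the largest changes within their own list. Their number is set by that choice. On the protease side it was 2.18 ± 0.36 for Pappa (adjusted p = 5.04e-05), -3.71 ± 0.12 for Stc2 (1.05e-15), -1.26 ± 0.08 for Htra1 (4.31e-11) and 1.69 ± 0.12 for Plat (2.24e-10). Among adaptors it was 1.70 ± 0.14 for Irs1 (4.81e-09), -0.82 ± 0.10 for Irs2 (1.05e-06) and 1.501 ± 0.14 for Socs2 (2.8e-08). In the PI3K arm it was 1.75 ± 0.14 for Pik3cd (2.79e-09) and -1.11 ± 0.10 for Foxo3 (6.47e-09). For the sorting partners it was 0.59 ± 0.10 for Ap1m1 (9.51e-05), 1.04 ± 0.10 for Ap1s1 (7.22e-08) and -0.59 ± 0.23 for Gnptg (0.042, lost in 13 of 19 alternatives). It was 0.21 ± 0.08 for Ctgf (0.0438, lost in 7 of 19 alternatives), 0.56 ± 0.10 for Igf2bp1 (0.000161) and -0.34 ± 0.08 for Igf2bp2 (0.00128). An exchange of the line labels within 1 treatment, which would change each of these values, was not tested.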

How the results depend on the processing

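Of 587 recomputed log2 changes of members, 537 kept direction and call, 19 lost the call, 18 gained it and 13 changed sign, none of the 13 past the threshold. Of 1780 for listed genes, 1684 kept both, 95 lost the call and 1 changed sign, Igf2bp3 with paclitaxel in EV-deficient cells (0.0075 with upper-quartile scaling). The members called between EV labels under DMSO were 2 in place of 1 with upper-quartile scaling, no low-count filter, DESeq2 or the replicate number as a block, and 3 with only the groups compared. Leaving out 1 library gave 1 to 3. Signs changed under DMSO for Igf2r (0.0051 without the filter, 0.077 without EV-proficient DMSO replicate 1, 0.0095 without EV-deficient DMSO replicate 1). Under paclitaxel they changed for Igfbp3 (0.023 with upper-quartile scaling) and Igfbp7 (0.0031 with upper-quartile scaling, 0.025 without EV-deficient paclitaxel replicate 3). In the interaction they changed for Igfbp3 (-0.0041 without the filter) and for Igf1r. The Igf1r values were 2.56e-06 with median-of-ratios factors, 0.081 by upper quartile, 0.0086 with a filter of 1 CPM, 2.17e-05 with DESeq2, 0.026 without EV-proficient paclitaxel replicate 1 and 0.055 without EV-deficient paclitaxel replicate 1. Over all omissions of 1 library these values ran from -0.084 to 0.077 (Igf2r), -0.20 to 0.025 (Igfbp7) and -0.098 to 0.055 (Igf1r). The cause was not tested. Replicate numbers did not pair the samples: over 18 same-number pairs, the correlation of deviations from group means ran from -0.0812 to 0.0970, and the block called Igfbp7 under DMSO (0.23, adjusted p = 0.0435). Of 64 RPKM levels, 29 moved by more than 1 SD with another length or unscaled totals. Depth limited Igfbp2, Igfbp5 and Igfbp6, with at most 40 counts in a library.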
